A study of Drosophila melanogaster with 12 samples.

Results

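Embryos that carry Drp1SG on top of SOD2i were compared with embryos that carry SOD2i alone, in 3 biological replicates of each genotype, 6 of the 12 libraries of the study. The libraries are those whose labels name the genotypes SOD2i and Drp1SG;SOD2i, the latter called the double genotype. Both genotypes share SOD2i, read here as RNA interference against Sod2, and differ by Drp1SG. The labels explain neither the letters SG nor the driver of either construct. Each replicate pooled 70 to 100 Drosophila melanogaster embryos from several collections at 28 C, hand-sorted so that cellularizing and gastrulating embryos were equally many. The egg collection window depended on how many eggs a genotype laid, and which window each genotype had is not given, so window, line background and genotype cannot be told apart. The same addition without SOD2i, Drp1SG against Control, is used as a second comparison. It has 3 libraries per genotype and shares no library with the first.

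Mitochondria fuse and divide continuously, and Drp1 is the dynamin-like GTPase that pinches the outer membrane during division. Superoxide that leaks from the respiratory chain into the matrix is converted to hydrogen peroxide by Sod2. In the fly embryo of these stages the nuclei become enclosed in cells, maternal RNA is cleared, and zygotic patterning genes such as the gap and pair-rule genes are first transcribed before the mesoderm folds inward.

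The 6 libraries held 66745289 to 75817981 reads in genes, so a count of 3 corresponded to 0.0400 to 0.0468 CPM (counts per library total after TMM scaling, on the usual CPM scale). Of 17868 genes in the table, 9863 had enough reads to be tested in an edgeR quasi-likelihood fit of all 12 libraries. A gene is said to rise or fall where its Benjamini-Hochberg adjusted p over all tested genes was under 0.05, and ± marks the standard error of a log2 fold change. The first of the principal components of the 6 libraries, with 55.9% of the variance, separated the genotypes, and SOD2i replicate 2 stood apart from the other SOD2i libraries on the second, with 19.6%. Markers of the labelled stages were abundant, with twi and sna, which specify mesoderm, at 147 to 221 CPM and 116 to 164 CPM. Of 4 cellularization markers slam was at 1371 to 1914 CPM, whereas nullo, bnk and Sry-alpha were listed at 0 in all 12 libraries, so that a listed 0 does not show that a gene was silent. Whether counting used strand is not given in the sources used here, so genes that overlap an antisense neighbour are uncertain, as are families of near-identical copies. In these bulk samples fewer cells of a type and less RNA per cell cannot be told apart.

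The targeted genes were measured first. Drp1 stood at 24.1, 23.5 and 18.6 CPM in SOD2i and at 43.8, 42.9 and 44.2 CPM in the double genotype. All double libraries lay above all SOD2i libraries, a log2 fold change of 0.98 ± 0.14 (edgeR adjusted p = 8.18e-04). Control had 36.0 ± 2.41 CPM of Drp1 (SD, n = 3) and Drp1SG 84.0 ± 17.5 CPM. The SOD2i mean of 22.1 CPM was thus below control, and the double mean of 43.6 CPM lay between control and Drp1SG. Sod2 stood at 1.76, 2.34 and 1.38 CPM in SOD2i and at 2.51, 3.54 and 3.08 CPM in the double genotype. The groups did not overlap, although both were far below the 50.8 CPM of control, and the log2 fold change was 0.74 ± 0.17 (adjusted p = 0.0126). In a fit of only the 6 libraries the Sod2 call was lost (adjusted p = 0.0627).

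In total 1903 genes differed, 19.3% of those tested, with 1036 higher in the double genotype (10.5%) and 867 lower (8.79%). The median log2 fold change of all tested genes was 0.03. Upper-quartile scaling instead gave 1059 higher and 566 lower genes. A change of at least 2-fold was met by 705 of the called genes (7.15%), 563 higher and 142 lower. The libraries of both genotypes did not overlap for 3673 genes (37.2%), a count made without regard to the test. The large rises were mostly of rare transcripts, since 295 of the 563 genes averaged under 1 CPM in the double genotype and only 62 reached 5 CPM. More genes also had at least 1 read in the double genotype, 11474 to 11574 per library against 11036 to 11066 in SOD2i. The number called was 1199 without SOD2i replicate 3, 1230 without double replicate 1 and 1248 without double replicate 3. The genes lower numbered 540, 478 and 531 in those fits, and the genes higher 659 without SOD2i replicate 3.

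**Figure D1:**
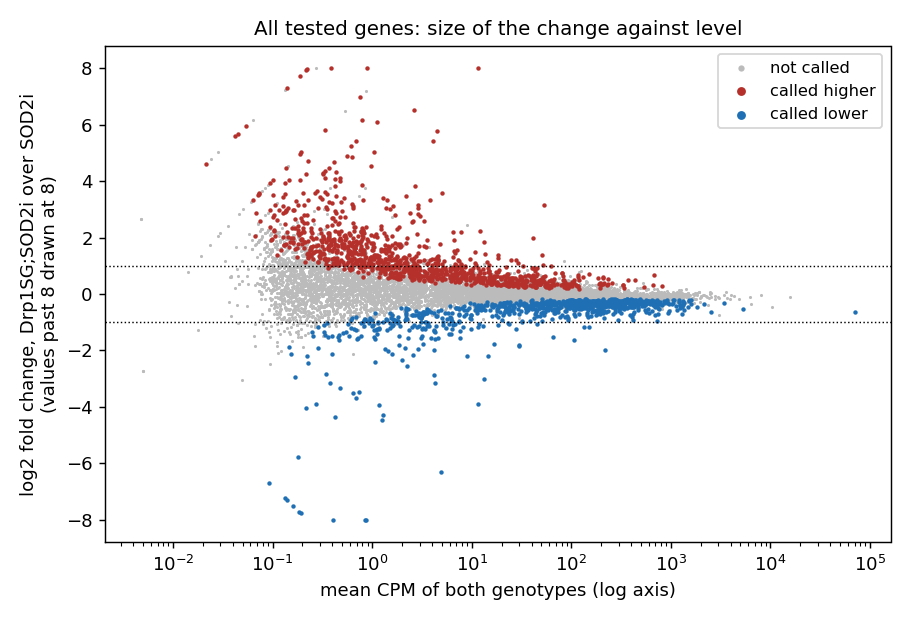
Each point is 1 of 9863 tested genes, with the mean CPM of both genotypes on a log axis and the log2 fold change of Drp1SG;SOD2i over SOD2i on the vertical axis, where dotted lines mark 2-fold. Called genes above the upper line, 563 in number, lie mostly at low levels, whereas the 867 called lower genes reach high levels with small changes.

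Among genes of at least 5 CPM, mthl8 (Dmel_CG32475), a receptor of the methuselah family, led the genes that rose. It had no read in any SOD2i library and was at 20.8, 24.5 and 24.8 CPM in the double genotype. By a floor of 3 counts per library the double genotype was at least 499-fold higher (edgeR adjusted p = 6.60e-08). Its level in the double genotype was close to the 21.1 ± 3.68 CPM (SD, n = 3) of control and the 20.6 ± 1.72 CPM of Drp1SG. IFT57, a subunit of the intraflagellar transport complex that builds cilia, was at 0.182, 0.140 and 0.225 CPM in SOD2i and at 7.58, 8.43 and 8.02 CPM in the double genotype. That is a log2 fold change of 5.44 ± 0.22 (adjusted p = 6.60e-08), and neither control (0.435 CPM) nor Drp1SG (0.570 CPM) came near the double genotype. The numbered gene CG16957 rose from 0.0606, 0.0780 and 0.0281 CPM to 5.34, 5.08 and 5.09 CPM (6.52 ± 0.26, adjusted p = 6.60e-08), where control stood at 2.70 CPM.

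The hairpin RNA gene hpRNA:CR18854, whose folded transcript is a source of endogenous small interfering RNA, was at 11.2, 12.5 and 8.73 CPM in SOD2i and at 102, 92.4 and 92.6 CPM in the double genotype. Its log2 fold change was 3.15 ± 0.16 (edgeR adjusted p = 4.79e-07), to the level of Drp1SG (98.3 ± 12.8 CPM). The activin-branch ligand daw rose from 0.576, 0.687 and 0.491 CPM to 6.05, 4.95 and 4.65 CPM (3.16 ± 0.34, adjusted p = 1.46e-04). Every double library was several-fold above every SOD2i library for both genes. The serpin Spn31A rose by a log2 fold change of 2.85, ord, which holds sister chromatids together in meiosis, by 2.75, the neuronal RNA-binding fne by 1.71 and the LIM-homeodomain factor ap by 1.69. The numbered genes CG31997 and CG7191 rose by 3.82 and 3.06.

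Several of the genes that rose stood in the double genotype near the level of control. SP2353 (Dmel_CG8403) was at 0.682, 1.20 and 0.449 CPM in SOD2i, 10.6, 9.06 and 8.33 CPM in the double genotype and 6.24 ± 1.09 CPM (SD, n = 3) in control. para, the voltage-gated sodium channel, was at 1.79, 3.68 and 2.96 CPM in SOD2i, 12.9, 14.1 and 12.0 CPM in the double genotype and 10.6 ± 1.49 CPM in control. tau, a microtubule-associated protein, was at 1.05, 1.06 and 0.758 CPM in SOD2i, 5.47, 5.93 and 5.74 CPM in the double genotype and 7.26 ± 0.646 CPM in control. In none of the 3 genes did the SOD2i and double libraries overlap, and the log2 fold changes were 3.59 ± 0.29, 2.21 ± 0.27 and 2.58 ± 0.18 (edgeR adjusted p = 2.10e-05, 3.02e-04 and 7.93e-06). Drp1SG alone also had low levels of these genes, 0.888, 2.95 and 2.69 CPM. The acetylcholine receptor subunit nAChRalpha5 went from 3.71, 3.93 and 3.30 CPM to 10.1, 8.11 and 13.8 CPM beside 9.66 CPM in control.

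**Figure D2:**
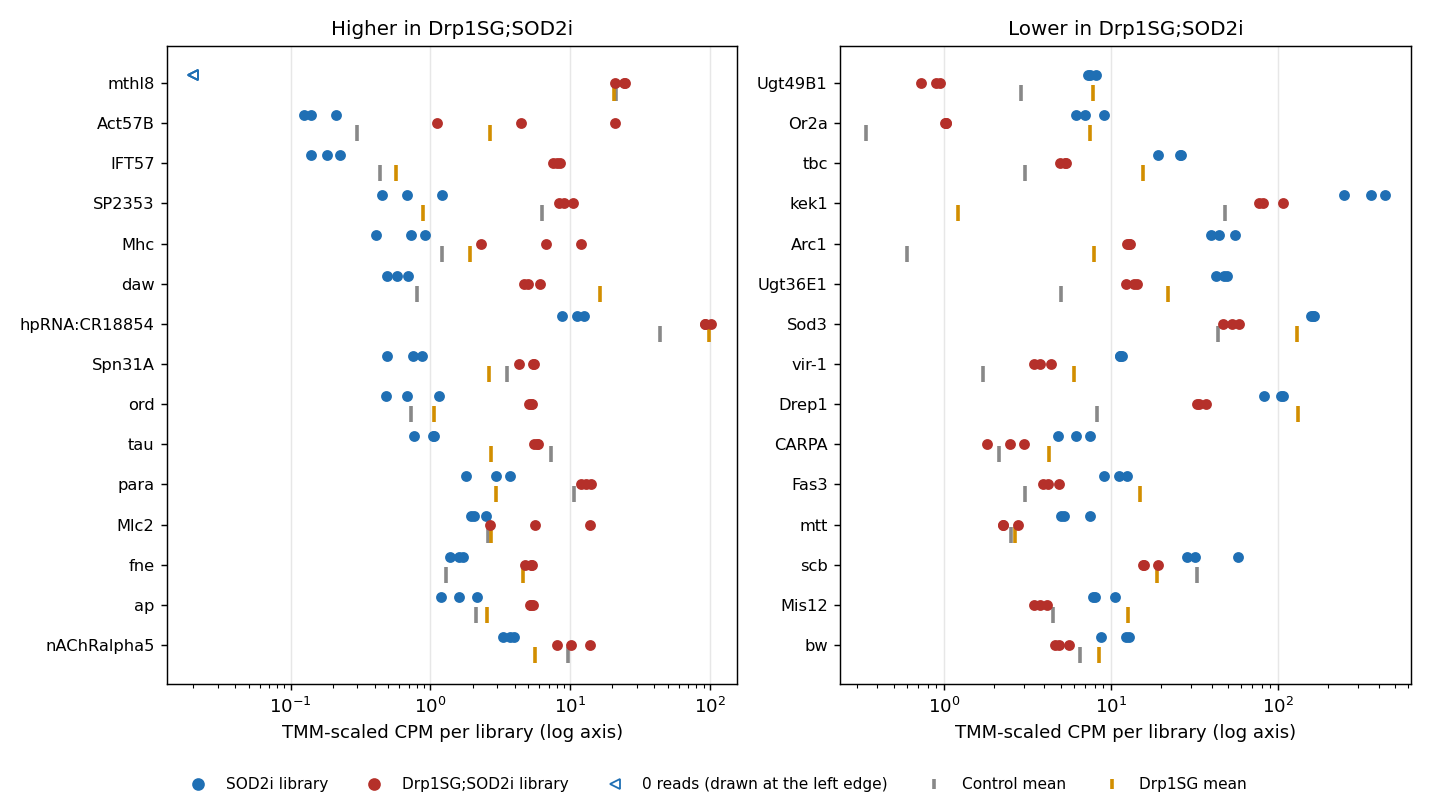
TMM-scaled CPM on a log axis for the 15 named genes per direction with the largest changes among called genes of at least 2-fold, at least 5 CPM and no overlap of libraries; dots are the 3 libraries of each genotype and ticks are the Control and Drp1SG means. For SP2353 and para the Drp1SG;SOD2i dots lie near the Control tick and the SOD2i dots near the Drp1SG tick, and mthl8 has 0 reads in SOD2i, drawn at the left edge.

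Among genes that fell, several stood high in each single genotype and lower in the double. Sod3, the extracellular copper-zinc superoxide dismutase, was at 163, 159 and 165 CPM in SOD2i and at 58.2, 53.0 and 46.6 CPM in the double genotype. The groups were far apart, the log2 fold change was -1.62 ± 0.10 (edgeR adjusted p = 2.08e-06), and control had 44.0 ± 4.83 CPM (SD, n = 3) beside 130 ± 6.95 CPM in Drp1SG. Drep1, whose product belongs to the family that restrains the apoptotic nuclease, was at 107, 82.5 and 105 CPM in SOD2i and at 37.04, 32.8 and 33.7 CPM in the double genotype, with 8.31 CPM in control and 131 CPM in Drp1SG. Its double libraries lay between the control and SOD2i levels. Arc1, which encodes a capsid-forming protein related to Gag of retrotransposons, went from 44.2, 55.1 and 39.6 CPM to 12.9, 13.1 and 12.5 CPM, still above the 0.598 CPM of control. The log2 fold changes were -1.51 ± 0.16 for Drep1 and -1.85 ± 0.16 for Arc1 (adjusted p = 1.17e-04 and 3.34e-05).

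The odorant receptor gene Or2a was at 6.17, 9.10 and 7.03 CPM in SOD2i and at 1.03, 1.02 and 1.03 CPM in the double genotype (-2.86 ± 0.29, edgeR adjusted p = 9.79e-05). tbc was at 19.1, 26.2 and 26.0 CPM against 4.94, 5.41 and 5.28 CPM (-2.19 ± 0.17, adjusted p = 1.91e-05). In control these genes were at 0.343 and 3.06 CPM and in Drp1SG at 7.45 and 15.5 CPM. The glycosyltransferase gene Ugt49B1 fell by 3.16 on the log2 scale, Ugt36E1 by 1.80, the virus-induced vir-1 by 1.56, the carbonic anhydrase relative CARPA by 1.34, the adhesion molecule Fas3 by 1.32, the kinetochore protein Mis12 by 1.23 and the pigment-precursor transporter bw by 1.16. Among numbered genes CG15270 fell by 6.29, CG32581 by 3.89 and lncRNA:CR43857 by 3.02. The receptor gene mtt and the integrin subunit scb had log2 fold changes of -1.28 and -1.23 (adjusted p = 0.0188 and 0.0285), whose calls depended on single libraries. Without SOD2i replicate 1, double replicate 1 or double replicate 3 mtt was not called, with log2 fold changes of -1.07, -1.23 and -1.23 (adjusted p of 0.0581, 0.0720 and 0.0711). Without SOD2i replicate 2 or double replicates 1, 2 or 3 scb was not called, with log2 fold changes of -0.86, -1.16, -1.32 and -1.18 (adjusted p = 0.101, 0.0897, 0.0536 and 0.0862).

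kek1, whose membrane protein dampens EGF receptor signalling, fell from 248, 435 and 359 CPM in SOD2i to 81.7, 107 and 76.9 CPM in the double genotype. The double libraries remained above the 48.4 ± 8.29 CPM (SD, n = 3) of control and far above the 1.22 ± 0.454 CPM of Drp1SG. The log2 fold change was -1.97 ± 0.25 (edgeR adjusted p = 4.13e-04). Its relative kek2 moved the other way, from 0.970, 1.23 and 0.983 CPM to 2.21, 2.63 and 2.50 CPM (1.21 ± 0.18, adjusted p = 0.00114), towards the 3.18 CPM of control.

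Besides mthl8, 1 gene with at least 1 CPM in the double genotype had no read in SOD2i, and 2 genes showed the reverse. These were named because they are few. Ir92a, an ionotropic receptor gene, was at 1.05, 1.52 and 2.76 CPM in the double genotype and at 1.47 CPM in control, with 0 reads in SOD2i and Drp1SG. CG7309 and lncRNA:CR43807, which lie close together on arm 2L, had no read in the double genotype or control. CG7309 was at 1.61, 1.78 and 1.73 CPM in SOD2i and lncRNA:CR43807 at 1.59, 1.95 and 1.70 CPM. For lncRNA:CR43807 and CG7309 the Drp1SG means were 0.947 and 1.47 CPM, so SOD2i and Drp1SG lay on one side and the double genotype and control on the other.

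Whether Drp1SG was followed by the same changes with and without SOD2i was tested by the interaction, the difference between both log2 fold changes. Drp1SG against Control called 1830 genes (18.6%), of which 959 were higher (9.72%), 871 were lower (8.83%) and 742 changed at least 2-fold (7.52%). The interaction called 1631 genes (16.5%), 907 with a positive (9.20%) and 724 with a negative (7.34%) difference, and 942 of at least 2-fold (9.55%). Without Drp1SG replicate 2 the count for Drp1SG against Control was 1112. Of the genes called in the double genotype against SOD2i, 623 were also called in Drp1SG against Control, 32.7% of the former list and 34.0% of the latter. Of these, 270 moved the same way, 157 higher and 113 lower. The other 353 moved in opposite directions, 199 higher in the double genotype and lower in Drp1SG, and 154 the reverse. All 353 were called in the interaction. The interaction is the difference between the same log2 fold changes, so the choice of genes with opposite calls nearly fixed that outcome. Of the 1280 genes called in the double genotype against SOD2i alone, 556 were called in the interaction, so for most of these no difference between the effects was shown.

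**Figure D3:**
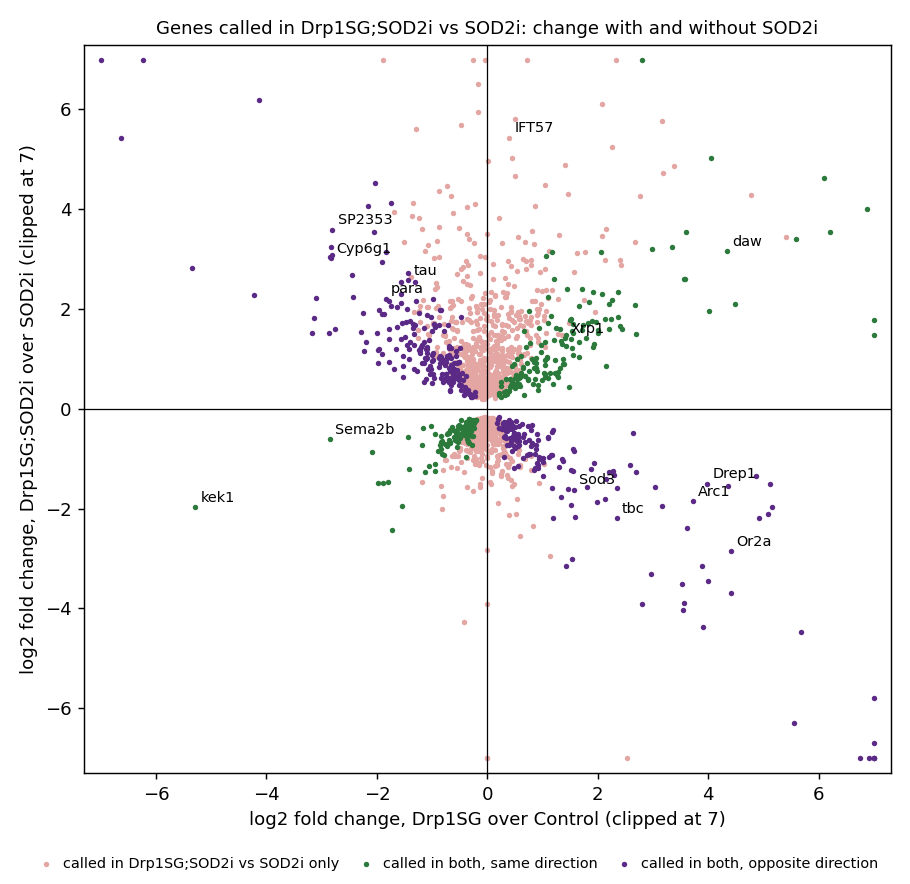
Genes called in Drp1SG;SOD2i against SOD2i, by their log2 fold change in Drp1SG over Control (horizontal) and in Drp1SG;SOD2i over SOD2i (vertical), clipped at 7. The 270 genes called in the same direction in both are green, and the 353 called in opposite directions are purple, with Sod3, Drep1, Arc1, tbc and Or2a at the lower right and SP2353, Cyp6g1, tau and para at the upper left.

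Of the 157 genes that rose in both comparisons, those with the largest changes by the naming rule are described here. Xrp1, a stress-induced bZIP factor, was at 6.14, 8.71 and 7.44 CPM in SOD2i and at 23.9, 19.0 and 16.5 CPM in the double genotype. Its log2 fold change of 1.41 ± 0.17 (edgeR adjusted p = 2.66e-04) stood beside 1.40 without SOD2i, and the interaction was 0.01 (adjusted p = 0.987). The ecdysone-induced nuclear receptor Eip75B rose from 2.55, 2.65 and 2.47 CPM to 6.51, 6.24 and 6.85 CPM (1.35 ± 0.11, adjusted p = 1.91e-05) and by 1.34 without SOD2i. Both genes had separate groups of libraries and nearly equal changes in either background. The lysosomal sulfamidase gene Sgsh rose by 1.48 with SOD2i and 1.42 without it, Thor, the fly 4E-BP that restrains translation, by 1.02 and 1.09, fne by 1.71 and 1.82, and the adaptor gene X11Lbeta by 2.60 and 3.55. daw rose by 3.16 with SOD2i and 4.34 without, a difference that was not called (interaction adjusted p = 0.107).

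Among genes that fell in both comparisons, the arginine methyltransferase gene Art2 went from 16.4, 18.5 and 19.2 CPM to 7.38, 8.18 and 8.91 CPM (-1.14 ± 0.12, edgeR adjusted p = 1.25e-04), and fell by 1.07 without SOD2i. The cell surface receptor gene Dscam2 fell by 1.10 with SOD2i and 0.94 without it, and the ecdysone-inducible ImpE2 by 0.64 and 0.55. The cell adhesion gene Nrt, one of the abundant zygotic transcripts, fell from 2535, 3724 and 2919 CPM to 1924, 2243 and 1778 CPM (-0.63 ± 0.14, adjusted p = 0.0107). No overlap was seen for these genes. kek1 and the semaphorin gene Sema2b fell in both comparisons as well but by different amounts. Sema2b fell by 0.61 with SOD2i and by 2.85 without it (interaction 2.25, adjusted p = 1.01e-05), from 95.2, 127 and 94.0 CPM to 62.4, 71.7 and 73.4 CPM in the first case.

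Pair-rule and gap genes were mostly lower in the double genotype, whereas later-acting segmentation lists held few calls, mostly fragile, in both directions. Of 9 pair-rule genes, which divide the trunk into alternating stripes, 6 fell and 0 rose, with a list median log2 fold change of -0.57 beside 0.03 over all genes. opa fell from 431, 641 and 477 CPM to 333, 347 and 308 CPM (-0.65 ± 0.12, edgeR adjusted p = 0.00413), and h from 162, 235 and 186 CPM to 122, 136 and 118 CPM (-0.63 ± 0.13, adjusted p = 0.00693). odd and run fell by 0.59 and 0.53, and ftz by 0.67. The double libraries lay below the SOD2i libraries for each, and SOD2i replicate 2 was the highest of the 6 for opa and h. The ftz call was lost without SOD2i replicate 2 or 3 or double replicate 1 or 3 (adjusted p of 0.0502 to 0.0603). The pair-rule count was 4 without any 1 of SOD2i replicates 2 and 3 or double replicates 1 and 3. In Drp1SG against Control 4 of the 9 fell, and no pair-rule gene was called in the interaction.

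Of 12 tested gap and head gap genes, which map broad domains along the body axis, 7 fell and 0 rose, with a median of -0.41. hkb fell from 59.3, 63.7 and 59.9 CPM to 35.6, 44.7 and 34.8 CPM (-0.67 ± 0.10, edgeR adjusted p = 0.00118), where control had 52.5 CPM. btd, oc and kni fell by 0.47, 0.48 and 0.50. Their SOD2i means of 44.4, 220 and 115 CPM were above the control means of 30.9, 171 and 91.1 CPM. The double means were 31.9, 158 and 81.4 CPM. Leaving out any 1 library kept the count at 6 or 7. For btd and oc the interaction was called (-0.66 and -0.53), beside log2 fold changes of 0.18 and 0.05 in Drp1SG against Control. Of 11 segment polarity genes, which pattern each segment, 1 rose and 2 fell with a median of -0.07. The call of the gene that rose was lost in 8 of 16 alternatives, and that of 1 gene that fell in 9. Of 8 Hox genes, which give segments their identity, 1 rose and 1 fell with a median of -0.14, and these calls were lost in 7 and 6 of 16 alternatives. The shares called were 27.3% and 25.0%, beside 19.3% of all genes, 58.3% of the gap list and 66.7% of the pair-rule list.

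Of 20 mesoderm and ventral furrow genes 8 fell and 1 rose (45.0% called, beside 19.3% of all genes), with a median of -0.25. mthl1, the receptor through which Fog drives apical constriction in the furrow, fell from 129, 150 and 137 CPM to 83.4, 81.4 and 77.0 CPM (-0.79 ± 0.07, edgeR adjusted p = 3.43e-05). NetA, a netrin guidance cue, fell from 131, 166 and 148 CPM to 90.0, 91.8 and 91.8 CPM (-0.70 ± 0.08, adjusted p = 2.16e-04). The double libraries were tight and below the 108 CPM of control for both genes. The ABC transporter gene Mdr49 fell by 0.80, and Ady43A by 1.57. The number that fell was 5 without SOD2i replicate 2 or double replicate 1. Of 16 dorsal ectoderm genes 5 fell and 0 rose (31.2% called, median -0.26), among them the proteases tld (-0.48) and tok (-0.45) that free the BMP ligand. The tok call was lost without double replicate 3 (adjusted p = 0.0511), and the count of 5 was 2 without SOD2i replicate 2, SOD2i replicate 3, double replicate 1 or double replicate 2 and 1 without double replicate 3. With upper-quartile scaling 5 mesoderm and 2 dorsal ectoderm genes fell. Of 7 endoderm and gut genes 3 fell and 0 rose (42.9% called), and 1 fell with upper-quartile scaling. Among them was the repressor gene ken, from 57.4, 67.1 and 57.8 CPM to 39.9, 45.7 and 45.1 CPM.

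Genes of cell adhesion and polarity moved in both directions, with 8 of 22 lower and 2 higher (45.5% called) and a median of -0.17. The number higher was 1 without SOD2i replicate 2, SOD2i replicate 3, double replicate 1 or double replicate 3. baz, the Par3 of the apical complex, was at 356, 362 and 356 CPM in SOD2i and at 253, 232 and 248 CPM in the double genotype (-0.55 ± 0.06, edgeR adjusted p = 1.92e-04), close to the 235 CPM of control. sdt, which stabilises the Crumbs complex, fell by 0.63. Fas2, an immunoglobulin-family adhesion molecule, rose from 30.4, 27.6 and 27.2 CPM to 51.0, 49.4 and 62.9 CPM (0.94 ± 0.11, adjusted p = 2.41e-04), near the 50.2 CPM of control. Outside this list, of 11 tested cellularization and furrow genes 1 rose and 1 fell, 18.2% called beside 19.3% of all genes. The gene that rose, the actin-binding thymosin cib, went from 41.7, 18.3 and 24.97 CPM to 80.2, 73.7 and 68.1 CPM (1.39 ± 0.23, adjusted p = 0.00216), below the 108 CPM of control. All genes named in this paragraph had separate groups of libraries.

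**Figure D4:**
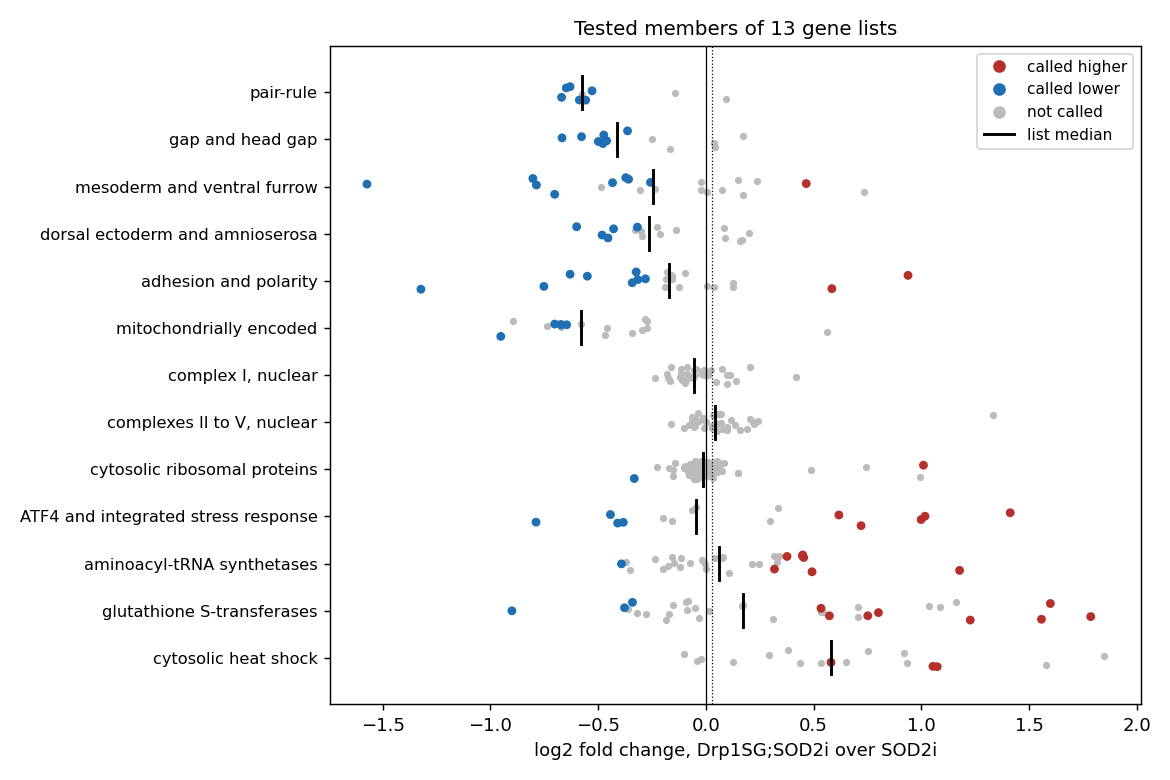
Log2 fold changes of the tested members of gene lists in Drp1SG;SOD2i over SOD2i, red where called higher, blue where called lower and grey where not called. Black bars are list medians, the dotted line is the median of all genes, and the pair-rule (-0.57), gap (-0.41) and mitochondrially encoded (-0.58) medians lie to its left.

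Transcripts encoded in mitochondrial DNA were a smaller share of the double libraries, at 7.46%, 9.32% and 6.83% of counts against 11.1%, 11.5% and 9.78% in SOD2i. The ranges did not overlap. Of 17 tested mitochondrially encoded genes 5 fell and 0 rose (29.4% called, beside 19.3% of all genes), with a median of -0.58. The large ribosomal RNA lrRNA took 8.30%, 8.42% and 7.31% of counts in SOD2i and 5.37%, 6.65% and 5.02% in the double genotype (-0.65 ± 0.15, edgeR adjusted p = 0.0132), and fell by 0.81 without SOD2i. The complex I subunit gene ND4L fell from 29.7, 32.5 and 35.1 CPM to 16.9, 22.1 and 22.04 CPM (-0.67 ± 0.15, adjusted p = 0.0108), and ND5 fell by 0.70. These calls were fragile, as lrRNA was lost without double replicate 3 (adjusted p = 0.0518) and ND5 without double replicate 1 or 3 (0.0536 and 0.0538). The count of 5 was 1 without double replicate 3, 2 without double replicate 1, 3 without SOD2i replicate 2 and 8 without double replicate 2. Poly(T) capture reads these RNAs through their tails, so the values are levels of captured RNA.

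Among nuclear genes of the respiratory chain, 0 of 33 complex I genes and 0 of 35 genes of complexes II to V passed the edgeR test, with medians of -0.06 and 0.04. An unadjusted p under 0.05 was met by 1 and 5 of them, DESeq2 called 1 and 2, and limma with voom 0 of either. Of 86 cytosolic ribosomal protein genes 1 rose and 1 fell (2.33% called), and of 71 mitochondrial ones likewise 1 and 1 (2.82%), with medians of -0.01 and -0.03. Of 14 genes of fission, fusion and mitophagy, Drp1 itself was the single one that rose, and 1 fell. The share called was 14.3%, beside 19.3% of all genes. The mitochondrial Hsp70 gene Hsc70-5 rose from 82.1, 71.4 and 65.4 CPM to 99.5, 95.3 and 101 CPM (0.43 ± 0.09, edgeR adjusted p = 0.00650), to the 99.6 CPM of control.

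The list of ATF4 and integrated stress response genes was split, with 5 of 15 higher and 4 lower and a median of -0.05. The share called was 60.0%, beside 19.3% of all genes. Leaving out any 1 library did not change these counts. crc, the fly ATF4, rose from 147, 183 and 166 CPM to 259, 242 and 259 CPM (0.62 ± 0.10, edgeR adjusted p = 0.00208), and by 1.10 without SOD2i (interaction -0.48, adjusted p = 0.0416). ImpL2, a secreted protein that binds insulin-like peptides, rose from 41.7, 44.9 and 37.8 CPM to 79.6, 81.8 and 87.3 CPM (1.00 ± 0.13, adjusted p = 5.29e-04). The libraries of both genes were well apart, and in the double genotype both lay between control (155 and 59.1 CPM) and Drp1SG (331 and 103 CPM). chrb, an inhibitor of TOR signalling, fell by 0.41 with SOD2i and rose by 0.38 without it. Of 30 aminoacyl-tRNA synthetase genes 7 rose and 1 fell, 26.7% called beside 19.3% of all genes. Those that rose included ArgRS (0.45), TrpRS (0.49) and ValRS-m (1.18). The count of 7 was 3 without SOD2i replicate 3 or double replicate 3 and 4 without double replicate 1. Of the 30 genes, 2 rose in a fit of only the 6 libraries. The TrpRS and ValRS-m calls were lost in that fit (adjusted p = 0.0562 and 0.0603).

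Of 17 cytosolic heat shock genes 3 rose and 0 fell, with a median of 0.58. Hsp68 rose from 3.50, 3.59 and 2.67 CPM to 7.18, 6.30 and 6.78 CPM (1.05 ± 0.18, edgeR adjusted p = 0.00256), and Hsp23 from 27.3, 32.9 and 35.9 CPM to 44.1, 53.0 and 46.6 CPM (0.58 ± 0.11, adjusted p = 0.00410). The double libraries of Hsp23 were near the 42.4 CPM of control. Hsp70Aa, which has near-identical copies among which reads may have been split, had a log2 fold change of 1.07. Its call was lost without SOD2i replicate 3 or double replicate 2, where the log2 fold changes were 0.84 and 0.97 (adjusted p = 0.0597 and 0.0583). The share called, 17.6% of the list, was near the 19.3% of all genes.

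Members of detoxification families changed in both directions. Of 33 glutathione S-transferase genes 8 rose and 3 fell (33.3% called), with a median of 0.17, and the count of 8 was 3 to 5 without SOD2i replicate 3 or any 1 double replicate. GstS1 rose from 130, 150 and 165 CPM to 217, 235 and 209 CPM (0.57 ± 0.09, edgeR adjusted p = 0.00115), near the 240 CPM of control. GstE7 rose by 0.75, and GstT4 fell by 0.90. Of 38 cytochrome P450 genes 7 rose and 1 fell, 21.1% called beside 19.3% of all genes. Cyp6g1 and Cyp6t3, of a cluster on arm 2R, were at 0.394, 0.296 and 0.309 CPM and at 0.212, 0.281 and 0.393 CPM in SOD2i. In the double genotype they were at 2.64, 2.95 and 2.54 CPM and at 2.09, 2.72 and 2.54 CPM, about as in control (2.89 and 2.18 CPM), with log2 fold changes of 3.02 ± 0.22 and 3.04 ± 0.23 (adjusted p = 8.93e-06 and 1.36e-05). Of 18 UDP-glycosyltransferase genes 4 rose and 4 fell (44.4% called), and the number that rose was 2 without SOD2i replicate 3, double replicate 1 or double replicate 3. Ugt49C1 fell from 1.94, 3.28 and 1.46 CPM to 0.116, 0.186 and 0.133 CPM. Among 34 proteasome genes 5 rose and 2 fell, a share of 20.6% and near that of all genes, and those named by the rule include Rpt3R (1.19) and Rpt6R (2.06), paralogues of proteasome regulatory subunits. The number of proteasome genes that rose was 3 without SOD2i replicate 2, double replicate 1 or double replicate 3, and the number that fell was 0 without SOD2i replicate 3, double replicate 1 or double replicate 3 and 4 without SOD2i replicate 1.

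Transcripts of differentiated muscle were higher in the double genotype, where 10 of 11 tested genes of a late-embryo muscle list rose, with a median of 3.35. That is 90.9% of the list, beside 10.5% of all genes that rose. Mhc, the muscle myosin heavy chain, was at 0.728, 0.921 and 0.407 CPM in SOD2i and at 6.69, 11.9 and 2.29 CPM in the double genotype (3.35 ± 0.54, edgeR adjusted p = 0.00170). Act57B, a muscle actin, was at 0.212, 0.125 and 0.140 CPM against 4.42, 20.8 and 1.12 CPM, and Mlc2, a myosin light chain, at 1.94, 2.51 and 2.05 CPM against 5.60, 13.9 and 2.68 CPM. Double replicate 2 was the highest of the 3 double libraries for each gene and double replicate 3 the lowest, although no double library overlapped SOD2i. wupA, a troponin I, rose by 3.14, and the titin relative bt by 0.84. Mlc1 had 0, 2 and 0 reads in SOD2i and 53, 249 and 12 in the double genotype. Its fitted log2 fold change of 6.99 thus rests on near-zero counts, and limma with voom did not call it. The summed level of 4 defining muscle markers, Mhc, Mlc2, Act57B and up, was 3.03 to 4.09 CPM in SOD2i, 7.06 to 55.6 CPM in the double genotype, 4.11 to 5.66 CPM in control and 6.04 to 13.4 CPM in Drp1SG.

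The muscle calls depended on single libraries and on the test. limma with voom called 4 of the 11 genes. Without double replicate 2 the list count was 6, the median was 2.72 and the log2 fold change of Mlc2 was 0.94. Without SOD2i replicate 3 the count was 5 and the Mlc2 call was lost (adjusted p = 0.0592). The Act57B call (5.77, edgeR adjusted p = 0.0264) was lost without double replicate 2 or any 1 SOD2i replicate (adjusted p of 0.0616 to 0.0937).

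Lists of other later cell types held fewer calls than the muscle list. The shares called were 37.5% of the haemocyte and 50.0% of the neuronal genes, beside 19.3% of all genes. Of 8 haemocyte genes 3 rose, namely Pxn, which crosslinks basement membrane, and both collagen IV genes vkg and Col4a1, with log2 fold changes of 1.06, 2.32 and 3.49. The collagen genes were highest in double replicate 2, at 4.97 and 7.88 CPM, and the Col4a1 call was lost without SOD2i replicate 3 (adjusted p = 0.0599). The haemocyte marker NimC1 was at or near 0 in all libraries, with at most 0.0533 CPM, and 3 haemocyte markers together summed to 6.13 to 6.55 CPM in SOD2i and to 8.74 to 11.3 CPM in the double genotype. Of 12 neuronal genes 2 rose, para among them, and 4 fell. elav, the pan-neuronal RNA-binding gene, was at 1.18, 1.26 and 1.43 CPM in SOD2i and at 0.188, 0.0286 and 0.0799 CPM in the double genotype (-3.69 ± 0.66, edgeR adjusted p = 0.00316), and brp, a synaptic active zone protein, fell by 0.98. The 4 neuron markers summed to 9.57 to 11.4 CPM in SOD2i and 6.98 to 7.83 CPM in the double genotype, with brp and elav lower, while the vesicle protein genes nSyb and Syt1 went from 1.93 to 2.82 CPM and 0.152 to 0.312 CPM to 2.50 to 3.44 CPM and 0.480 to 1.27 CPM. The median of the neuronal list was 0.13. Of 9 tested cuticle and trachea genes 2 rose and 0 fell, 22.2% called and near the 19.3% of all genes. The list median was 0.66, and all 9 log2 fold changes were above 0. The chitin synthase gene kkv rose from 4.99, 6.09 and 5.38 CPM to 8.26, 8.52 and 9.22 CPM (0.66 ± 0.13, adjusted p = 0.00431), and obst-A, a chitin-binding protein gene, from 0.121, 0.156 and 0.0561 CPM to 0.563, 0.530 and 0.680 CPM (2.41 ± 0.42, adjusted p = 0.00271). The cuticle marker sum was 1.39 to 2.06 CPM in SOD2i and 2.50, 6.89 and 2.46 CPM in the double genotype, highest in double replicate 2 like the muscle genes. Whether older embryos or tissue in the pools had a part in these values was not tested.

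**Figure D5:**
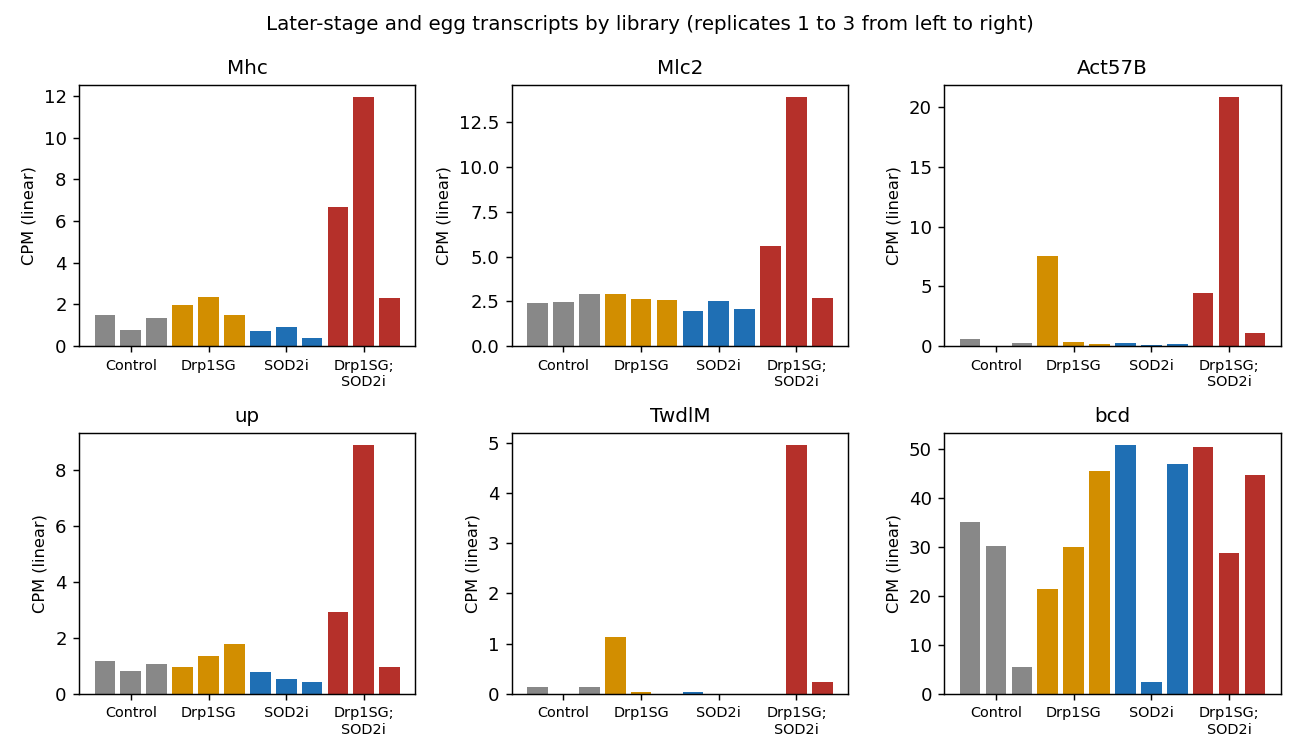
CPM on linear axes in all 12 libraries, with bars for replicates 1 to 3 of each genotype, of muscle transcripts (Mhc, Mlc2, Act57B, up), a cuticle transcript (TwdlM) and the egg transcript bcd. Muscle bars are tallest in Drp1SG;SOD2i replicate 2 (Act57B 20.8 CPM), and bcd is lowest in SOD2i replicate 2 (2.31 CPM).

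Among maternal RNAs the libraries of 1 genotype differed widely. Of 27 tested unstable maternal transcripts 2 rose and 2 fell (14.8% called, beside 19.3% of all genes), with a median of 0.06. The number that rose was 1 without any 1 library other than SOD2i replicate 1. The list mean in log2 CPM was 5.08, 3.76 and 4.66 in SOD2i and 4.96, 4.63 and 4.64 in the double genotype. SOD2i replicate 2 was the lowest library, and there the anterior determinant bcd was at 2.31 CPM against 50.8 and 46.9 CPM in the other SOD2i replicates and 28.7 to 50.5 CPM in the double genotype. Of the maternal genes fs(1)K10, which acts in oocyte polarity, fell from 201, 198 and 220 CPM to 95.0, 88.5 and 94.6 CPM (-1.15 ± 0.10, edgeR adjusted p = 2.66e-05), and cort, a meiotic activator of the anaphase-promoting complex, rose by 1.11. With the list mean as a covariate 2702 genes were called, of which 1879 were among the 1903. Without SOD2i replicate 2 the number was 1509, of which 1317 were among the 1903.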

How the data were processed

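RNA-seq of whole embryos gave 12 libraries, 3 per genotype, made from 200 ng of total RNA by poly(T) capture, per the labels' protocols. The deposited table holds raw read counts per gene for 17868 genes. Per the submitters' processing notes, featureCounts 1.5.2, HISAT2 2.1.0, Bowtie2 2.2.4, Trimmomatic and DESeq2 were used, with no order or role stated. The genome build is not given in the sources used here. Gene names came from the table, and chromosome arms and gene order from RefSeq for the assembly Release 6 plus ISO1 MT, in which 17827 of the IDs were found. No sequence is printed.

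The analysis used edgeR 4.0.16 under R 4.3.3, with TMM scaling, filterByExpr (9863 genes kept) and a quasi-likelihood fit of all 12 libraries with 1 mean per genotype. All 12 libraries share 1 estimate of the spread per gene. Contrasts were the double genotype against SOD2i, Drp1SG against Control and the difference between both (interaction). Adjusted p-values in all texts are Benjamini-Hochberg values of this test over all tested genes unless another tool is named. The standard error is the absolute log2 fold change divided by the square root of F. Log2 CPM used a prior count of 2. Floors of 3 counts cover counting error only. The members and gene lists were chosen with earlier results of these data known.

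Named genes are Sod2 and Drp1, then per direction up to 15 with a named symbol and 3 numbered ones with the largest change among called genes of at least 2-fold, a mean of at least 5 CPM and no overlap of libraries. Up to 4 members per list were added by adjusted p, up to 8 by the interaction and up to 8 per direction called in both comparisons. Genes behind a count of 5 or fewer and markers of cell types were named besides. Data simulated for the double genotype against SOD2i had 200 genes changed before filtering, and 9693 genes were run. The fit recovered 38.5% of the 65 run genes changed 1.5-fold, 66.2% of 65 at 2-fold and 83.9% of 62 at 4-fold, with 5 unchanged genes among 125 called.

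Alternatives were DESeq2 1.42.0 size factors and its Wald test, upper-quartile scaling, limma 3.58.1 with voom, no filter, a filter of 1 CPM in 3 libraries, a replicate block, mitochondrially encoded genes left out, a maternal covariate, the 6 libraries alone, and each replicate left out.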

Additional observations from a re-analysis of the deposited data

Results flagged for a closer look

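The results below were singled out because the effect of adding Drp1SG differed between embryos with and without SOD2i by the interaction test of edgeR (adjusted p under 0.05). Values are the log2 fold change with SOD2i minus that without it, so a positive value means a change further upward with SOD2i. Of the 105 genes named in the text 65 were called, whereas 16.5% of all tested genes were. Most named genes were chosen by a change that enters the interaction, and some by the interaction itself. The count of 65 is therefore raised by the choice and is no result about these genes.

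Some genes rose with SOD2i and were lower in Drp1SG than in Control. In these the interaction was 6.395 for SP2353, 4.01 for tau, 4.05 for para, 2.33 for nAChRalpha5, 5.86 for Cyp6g1, 5.90 for Cyp6t3, 3.17 for kek2, 2.27 for Rpt3R, 3.80 for Rpt6R, 2.44 for cib and 1.02 for GstS1. Some genes fell with SOD2i and were higher in Drp1SG than in Control. For them the interaction was -5.49 for Drep1, -3.19 for Sod3, -5.58 for Arc1, -3.93 for Ugt36E1, -4.58 for Ugt49B1, -6.73 for Ugt49C1, -4.53 for tbc, -3.37 for vir-1, -7.28 for Or2a, -3.61 for Fas3, -2.73 for Mis12, -2.35 for CARPA, -4.60 for Ady43A, -1.71 for fs(1)K10, -1.02 for baz, -0.79 for chrb, -1.76 for GstT4, -8.11 for elav and -1.98 for brp. The numbered genes CG15270, CG32581 and lncRNA:CR43857 had interactions of -11.85, -7.46 and -4.55.

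Other genes that rose with SOD2i moved either way in Drp1SG against Control, with Hsp70Aa (-0.99) and Spn31A (-0.44) among those lower. For these genes the interaction was 5.04 for IFT57, 6.68 for CG16957, 3.61 for CG31997, 1.99 for CG7191, 3.28 for Spn31A, 2.21 for ord, 1.42 for ap, 1.98 for hpRNA:CR18854, 1.02 for Fas2, 1.01 for GstE7, 1.62 for Hsp68, 2.07 for Hsp70Aa and 0.78 for Sod2. Later-stage genes also moved either way in Drp1SG against Control, with kkv (-0.39) and obst-A (-0.94) among those lower. Their interaction was 2.67 for Mhc, 0.91 for bt, 6.27 for Mlc1, 1.97 for vkg, 1.05 for kkv and 3.35 for obst-A. For crc, which rose less with SOD2i, it was -0.48. Other genes that fell with SOD2i moved either way in Drp1SG against Control, with bw (0.38) among those higher. Their interaction was -0.66 for mthl1, -0.90 for NetA, -0.78 for Mdr49, -0.66 for btd, -0.53 for oc and -1.54 for bw. kek1 and Sema2b fell less with SOD2i, with 3.33 and 2.25. For genes with no read in a genotype the fitted values depend on the prior count, and were 13.72 for mthl8, 19.66 for Ir92a, -19.01 for lncRNA:CR43807 and -19.60 for CG7309. The interactions of Mlc1, elav and CG15270 also rest on few reads, so their sizes are uncertain. Mlc1 had 0, 2 and 0 reads in SOD2i. In Control elav had 6, 0 and 0 reads and CG15270 had 2, 12 and 8. Why the effects differ was not tested.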

How the results depend on the processing

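Of the 105 genes named in the text 91 kept their direction and side of the threshold in each alternative. Of their 1674 values under alternatives 1641 did so, 33 lost the call and 0 changed direction. The naming rule gave 218 genes in all, so these counts cover only a part of them. Rule-named genes left out of the text include fragile ones, some with the call lost in 10 or 11 of 16 alternatives. The share of 91 is therefore raised by the choice of genes. The 1903 calls became 1972 with DESeq2 size factors, 1625 with upper-quartile scaling, 1727 without a filter, 1566 with a filter of 1 CPM, 2383 with the DESeq2 Wald test, 1891 with voom, 1956 without mitochondrially encoded genes and 1359 in the 6 libraries alone. The 867 genes lower became 566 with upper-quartile scaling and 560 in the 6 libraries alone. With the filter of 1 CPM, which tests fewer rare transcripts, the 705 changes of at least 2-fold became 392, and the 742 of Drp1SG against Control became 491. The 1631 interaction calls became 2646 with the maternal covariate (1421 higher, 1225 lower), and the 724 lower ones 465 with upper-quartile scaling. The cause was not tested.

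Leaving out 1 replicate gave 1199 to 2112 calls for the double genotype against SOD2i (659 to 1118 higher, 478 to 994 lower, 496 to 751 at least 2-fold). It gave 1112 to 1644 for Drp1SG against Control (636 to 824 higher, 476 to 820 lower, 596 to 680 at least 2-fold) and 1250 to 1711 for the interaction (715 to 1042 higher, 524 to 776 lower, 807 to 1027 at least 2-fold). The difference in list mean between the double genotype and SOD2i, in log2 CPM, ranged from -0.12 to 0.53 for maternal transcripts, -0.36 to -0.14 for the early zygotic wave, -0.15 to 0.01 for Hox and -0.13 to 0.06 for segment polarity genes, against 0.24, -0.25, -0.05 and -0.03 with all libraries. Same-numbered replicates of both genotypes had deviations correlated at 0.209, 0.183 and 0.0267 across genes, and differently numbered ones at -0.229 to 0.0611. These values do not settle whether replicates were paired, and the main fit did not take the numbers as pairs. The replicate block gave 1669 calls. Rare transcripts are limited by depth.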

Other observations

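Genes that changed at least 2-fold often had a neighbour that changed in the same direction. By RefSeq gene order, 166 of 558 such genes that rose (29.7%) lay next to another one, whereas 10.8% of all 9792 tested genes with a position lay next to one. For genes that fell the values were 40 of 142 (28.2%) and 2.82%. Runs of adjacent genes that rose included the P450 genes Cyp6g1, Cyp6g2 and Cyp6t3 on arm 2R, the acyl-CoA-binding protein genes Acbp4, Acbp6, Acbp3 and Acbp2 on 3L, and tau, Mlc1 and unc80 on 3R. On 2L, ppk17, Mhc, Cyt-b5-r and Ugt37C2 rose together, and a run of 6 genes from lncRNA:CR43807 to CG14069 fell. Adjacent genes can share reads where they overlap, and whether a chromosome region specific to a fly line had a part was not tested.

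The share of tested genes called differed by chromosome. It was 41.9% on the small chromosome 4, with 15 of 93 genes higher and 24 lower, 23.6% on X, 20.6% on 2R, 19.3% on 2L and 16.7% on each of 3L and 3R. Of 369 long noncoding RNA genes 21 rose and 57 fell (21.14% called), and of 9296 protein-coding genes 1003 rose and 796 fell (19.35% called). Both shares were near the 19.3% of all genes, of which 10.5% rose and 8.79% fell.

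Glycolytic genes had a median log2 fold change of 0.26 with 0 of 14 higher and 2 lower by edgeR, and a median of 0.74 with 6 higher in Drp1SG against Control. Drep1 was the single gene of 15 apoptosis genes that fell, and 0 rose. The double genotype against SOD2i thus called 14.3% of the glycolytic and 6.67% of the apoptosis genes, beside 19.3% of all genes.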
